A study of Raphanus sativus with 12 samples.

Results

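The regions described here were 1232 peaks of N6-methyladenosine (m6A) in radish leaf RNA, lying in 1215 genes. They were taken from the authors' table of 5476 peaks (5211 genes) that differed between leaves of 2 ages. A peak was included when the authors had annotated it as exonic and its centre lay before 0.8 of the span from gene start to gene end, counted from the 5′ end along the gene's strand. Of the 3449 exonic peaks, the other 2217 were centred at or after 0.8, and the table also held 1890 peaks of the 3′ UTR and 137 of the 5′ UTR.

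The plants were diploid radish (Raphanus sativus) of the material XHT, grown with 16 hours of light at 25 °C by day and 23 °C in the dark, with no treatment. Leaf blades were taken 30 days after sowing, in vegetative growth, and 120 days after sowing, in reproductive growth, and every library pooled leaves of 3 plants. Each age gave 3 input libraries (RNA-seq) and 3 libraries of RNA precipitated for m6A, 12 in all, described by the submitters as independent biological replicates. The series asks which genes differ in m6A between the vegetative and the reproductive leaf, and here the question is how the exonic peaks centred before 0.8 of the gene took part.

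In plants, m6A is written on messenger RNA by a methyltransferase complex, removed by demethylases of the ALKBH family and bound by proteins with a YTH domain. In m6A-seq, RNA fragments are precipitated with an antibody against the mark, and a peak is a stretch with more precipitated fragments than the input predicts. Plant transcripts usually carry the mark near the stop codon and in the 3′ UTR, so exonic peaks centred further upstream are the less usual kind. The mark is known to act on the stability and the processing of the RNA that carries it.

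The centre of a peak did not always show how far the peak was from the 3′ end. Only 571 of the 1232 peaks (46.3%) also had their 3′ edge before 0.8 of the gene span. A further 538 (43.7%) extended to the annotated 3′ end of the gene, among them 143 (11.6%) that covered the gene span from end to end and therefore have their centre at 0.5. Of the other peaks, 586 lay inside the gene without touching either end and 108 began at its 5′ end. For comparison, 89.2% of the exonic peaks centred at or after 0.8 extended to the gene's end. The set is therefore called here by its rule, exonic peaks centred before 0.8, and results are given by shape where the shapes differed.

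**Figure D1:**
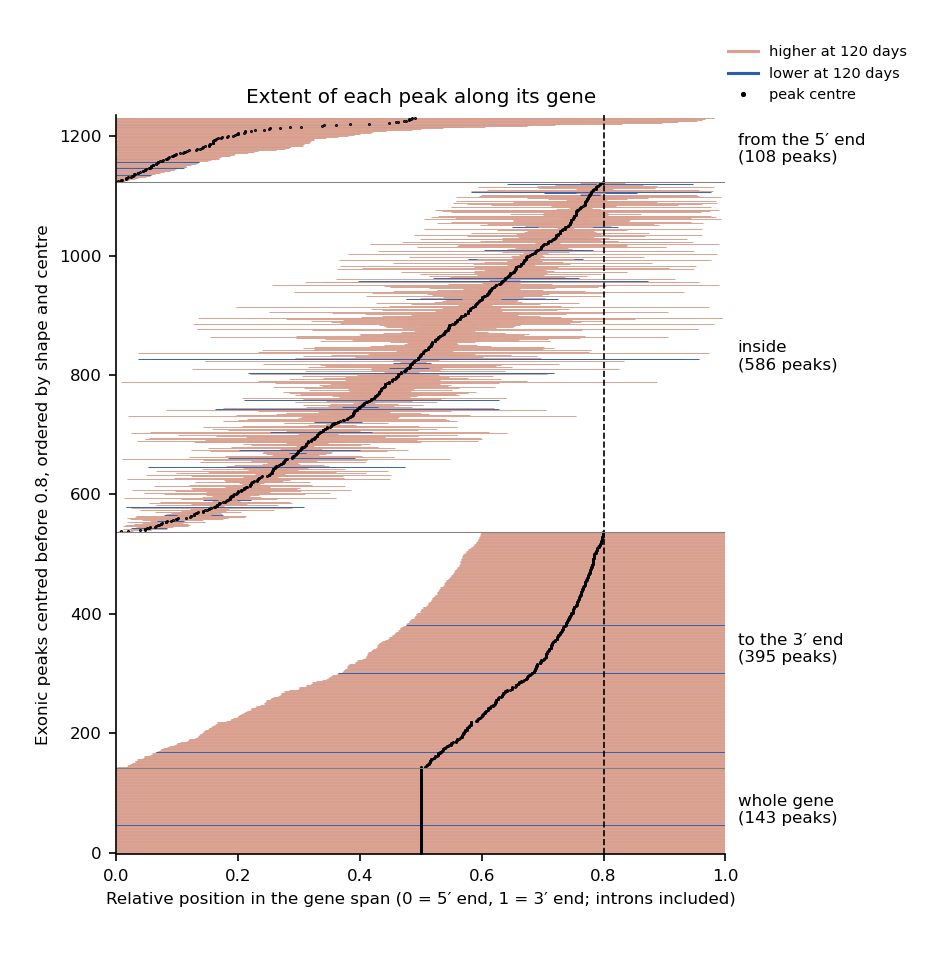
Each horizontal line is 1 of the 1232 peaks, drawn from its 5′ to its 3′ edge on the relative gene span (0 to 1), with its centre as a black point and the limit of 0.8 dashed. Blocks from the bottom up are the 143 peaks over the whole gene, the 395 that reach the 3′ end only, the 586 inside the gene and the 108 that begin at the 5′ end. The few blue lines are the 44 peaks that were lower at 120 days.

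As a set, the peaks were long and took up much of their genes, which the rule itself favours. The median length was 586 bases (quartiles 320 and 1000, range 60 to 32654), against 359 bases for exonic peaks centred at or after 0.8 and 502 for 3′ UTR peaks. Their genes were shorter, with a median span of 2004 bases against 2507, so that the median share of the span covered was 41.3% (quartiles 14.2% and 68.4%) against 15.0% for the later exonic peaks, 21.1% for 3′ UTR peaks and 12.3% for 5′ UTR peaks. In 466 of the peaks the share covered exceeded 50%, which no later exonic peak did. The rule bears on this contrast, since a peak that reaches the 3′ end is centred before 0.8 only if it covers a large share. The 571 peaks with their 3′ edge before 0.8 had a median length of 399 bases and a median share of 14%. The median span of their genes was 3128 bases. Lengths run from start to end of a peak on the genome, so introns are counted where a peak crosses them.

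The longest peaks all lay in genes of exceptional span. The longest covered 32654 bases, 98.2% of the span, in the gene described as agamous-like MADS-box protein AGL6 (Rsa10026178, chromosome R03, 14662079 to 14694732, plus strand). It was followed by 31367 bases in myb-related protein A-like (Rsa10003364, R02, 27056353 to 27087719, plus strand), 20680 bases in B3 domain-containing protein REM-like 1 (Rsa10011720) and 20417 bases in nitrilase-like protein 2 (Rsa10029407). Among the peaks that covered a whole gene, the longest were 12039 bases in titin-like (Rsa10001205), 3521 in AGL19 (Rsa10004026), 2993 in homeobox-leucine zipper protein HAT5-like (Rsa10025711) and 2752 in protein DEK-like (Rsa10041645). At the other extreme, the peak nearest a 5′ end had its centre at 0.0036 of the gene, in myb-related protein 306-like (Rsa10023517, R07, 13491893 to 13492097, minus strand).

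Almost all of the peaks were higher at 120 days. The authors' log2 fold of 120 over 30 days was above 0 in 1188 peaks (96.4%) and below 0 in 44 (3.57%), and over all 5476 differential peaks the shares were 96.8% and 3.21%. The median log2 fold was 0.48 (quartiles 0.35 and 0.69, range -10.40 to 7.58), against 0.51 for the later exonic peaks, 0.50 for 3′ UTR peaks and 0.57 for 5′ UTR peaks. A log2 fold of at least 1 in either direction was reached by 121 higher and 23 lower peaks, 11.7% of the set against 10.2% of all differential peaks. Peak folds and false discovery rates (FDR) throughout are the authors' own values per peak. The table gives no value per library, so the spread between replicates cannot be set beside a peak fold and no test was made on them.

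Folds differed along the gene. In the first 0.2 of the span the median log2 fold of 148 peaks was 0.60, from 0.2 to 0.4 it was 0.59 over 158 peaks, from 0.4 to 0.6 it was 0.48 over 420 and from 0.6 to 0.8 it was 0.43 over 506. The share with a log2 fold of at least 1 in either direction was 24.3%, 15.2%, 10.2% and 8.10% in the same order. Lower peaks made up 7.43% of the first bin (11 peaks), 5.70% of the next (9), 1.90% of the third (8) and 3.16% of the last (16). Peak length differed between these bins too, with medians of 268, 478, 746 and 622 bases, and its part in the folds was not tested. Across the 1232 peaks, fold and position had a Pearson r of -0.0265 and a Spearman rho of -0.178, a description over peaks that come from the same libraries.

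**Figure D2:**
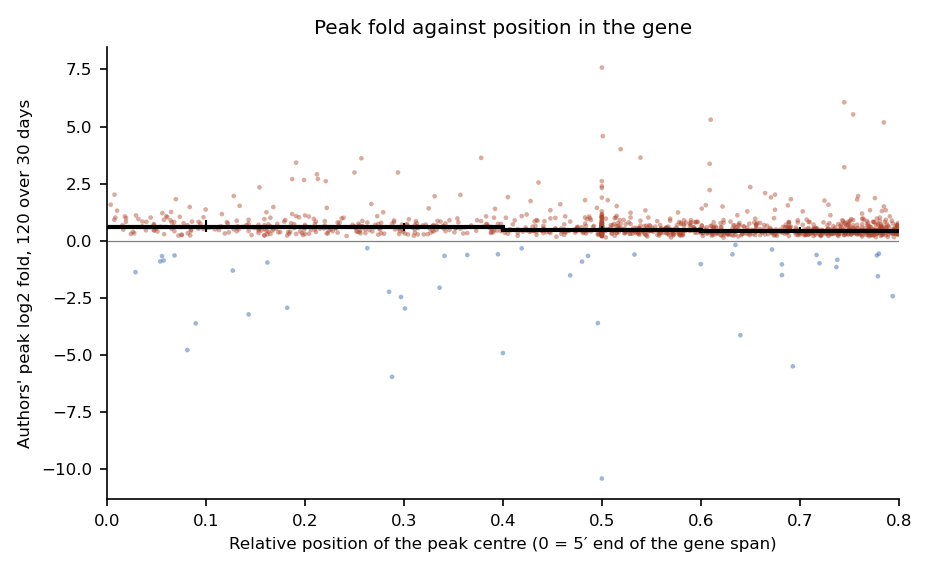
The authors' peak log2 fold (120 over 30 days) is plotted against the relative position of the peak centre for 1232 peaks, red above 0 and blue below. Black bars give the median in each 0.2 of the gene span, from 0.60 in the first to 0.43 in the last, with the quartiles as vertical lines, and the column at 0.5 holds the 143 peaks over whole genes.

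Folds differed between the shapes too, though not in the order of their positions. Peaks inside the gene had a median log2 fold of 0.54, with 5.29% of them lower at 120 days and 16.9% at a log2 fold of at least 1 in either direction. Peaks that reached only the 3′ end had a median of 0.41, with 1.01% lower and 3.04% at that size. Peaks that began at the 5′ end had a median of 0.51, with 7.41% lower and 17.6% at that size. Peaks over the whole gene had a median of 0.48, with 0.699% lower and 9.79% at that size. Within the inside peaks alone, where both edges lay off the gene ends, the median was 0.68 in the first 0.2 of the gene (67 peaks), then 0.59 (142), 0.53 (180) and 0.49 (197). Lower peaks in those bins were 7.46%, 4.93%, 3.33% and 6.60%, so the share of lower peaks did not fall steadily along the gene.

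Peaks in weakly expressed genes had the larger folds. Genes were placed in 3 groups of nearly equal size by mean FPKM (fragments per kilobase of transcript and mapped library size) over the 6 input libraries. In the lowest, from 0.978 to 10.2 FPKM, the median log2 fold was 0.67 and 16.6% of 391 peaks had a log2 fold of at least 1 in either direction. In the middle, up to 23.5 FPKM, these were 0.46 and 5.90% of 390 peaks, and in the highest, from 23.6 to 957 FPKM, 0.38 and 2.05% of 391. Of the lower peaks with a tested gene, 21 were in the lowest group, 8 in the middle and 3 in the highest. Across 1172 peaks the size of the fold and the FPKM at 30 days had a Pearson r of 0.0592 and a Spearman rho of -0.552, given as a description over peaks measured in the same libraries. The table lists peaks with an authors' p-value up to 0.049, and how that limit acted on peaks with few reads was not tested.

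**Figure D3:**
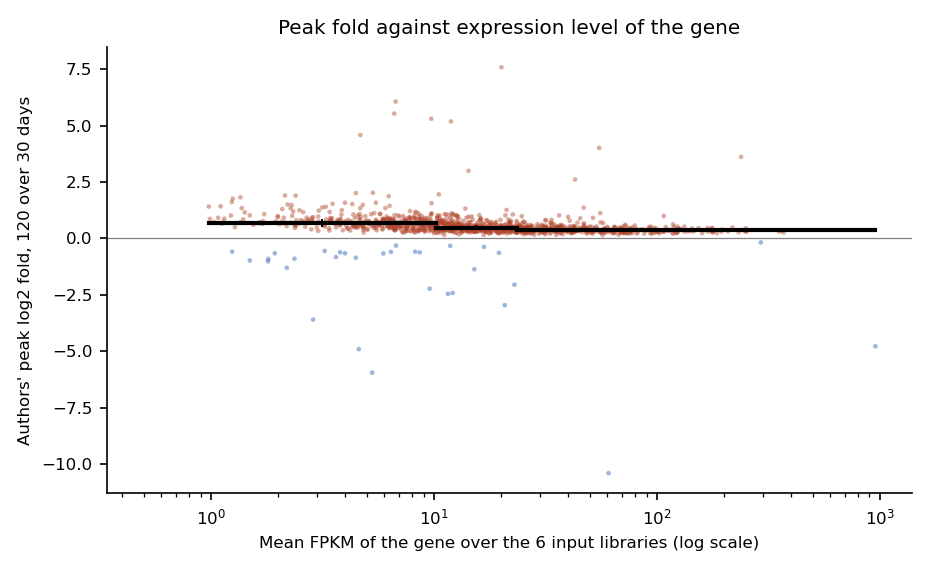
The authors' peak log2 fold is plotted against the gene's mean FPKM over 6 input libraries (log scale) for the peaks of tested genes. Black bars are the medians of the 3 expression groups, 0.67, 0.46 and 0.38, with quartiles as vertical lines, and the scatter of folds narrows to the right.

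The 8 peaks that gained most, among genes with an informative description, lay in genes of varied roles. The gene for a probable polygalacturonase (Rsa10002725, R04, 48720378 to 48721076, plus strand), an enzyme class that cleaves pectin, held a peak with a log2 fold of 6.06 (FDR 1.48e-09). It was followed by inositol oxygenase 4 (Rsa10036737, R04, 3652700 to 3653195, minus strand), whose enzyme opens the inositol ring to glucuronic acid, at 5.53. Mitochondrial aspartate aminotransferase (Rsa10016561, R04, 36552961 to 36553428, plus strand), which links amino acid and organic acid pools, had 5.30 with an FDR of 3.16e-16. Syntaxin-22 (Rsa10000544, on an unplaced scaffold), a membrane fusion protein of the vacuolar route in Arabidopsis, had 5.18.

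Next came myb-related protein A-like (Rsa10003364) at 4.58 and clathrin heavy chain 1-like (Rsa10011156), the coat protein of endocytic vesicles, at 4.01 with an FDR of 2e-16. The list ended with ROOT PRIMORDIUM DEFECTIVE 1-like (Rsa10021107) at 3.63 and putative NAC domain-containing protein 61 (Rsa10022985) at 3.42. Those last peaks were short, 61 and 107 bases, and rested on FDR values of 0.0339 and 0.0891 in genes whose mean FPKM was under 1 at both ages. The greatest rise of any of the 1232 peaks, 7.58, was in a gene with no description (Rsa10002879).

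The 44 lower peaks were few but large. Their median log2 fold was -1.02, 23 of them were at -1 or below and 15 at -2 or below, and 31 had both edges inside the gene. Large lower folds were not particular to the set. Of all 176 lower differential peaks, 88 were at -1 or below and 48 at -2 or below. Only 15 of the 44 had an FDR at or under 0.01, whereas 977 of the 1188 higher peaks did. Beta-amylase 6 (Rsa10038527, R01, 6317772 to 6318240, plus strand), of the family that breaks down starch, had -5.95 with an FDR of 0.0324. A probable serine/threonine-protein kinase (Rsa10000572) had -4.91 with an FDR of 0.0661 over 90 bases. Vacuolar-processing enzyme gamma (Rsa10002434, R02, 76560 to 76937, minus strand), a vacuolar cysteine protease that matures other vacuolar proteins, had -4.78 with an FDR of 1e-130.

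Further lower peaks lay in NETWORKED 2D-like (Rsa10029000), of a family of actin-binding proteins, at -3.61 (FDR 0.01), and in the probable receptor-like protein kinase At5g47070 (Rsa10016303) at -3.60 (FDR 0.00017). The probable disease resistance protein At1g59620 (Rsa10019703) had -3.22 with an FDR of 0.0851, in a gene with a mean FPKM of 0.24 at 30 days and 0.09 at 120 days. The probable methyltransferase PMT24 (Rsa10040403) had -2.96 with an FDR of 9.55e-09. Transcription factor PIL1 (Rsa10001233), a light-regulated bHLH protein in Arabidopsis, had -2.93 with an FDR of 0.0562. The greatest fall of any of the 1232 peaks was -10.40 over an entire uncharacterized gene of 543 bases (Rsa10032271), whose FPKM averaged 68.3 at 30 days and 53.3 at 120 days.

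Some genes held several differential peaks, whose directions and sizes are set side by side here. With 96.4% of the set and 96.9% of all other peaks higher, most pairs would be both higher whatever the gene. Of the 1215 genes, 17 held 2 of the peaks, and in all 17 both peaks were higher at 120 days. Their folds differed by a median of 0.18 (log2) and at most 0.75, and the peak nearer the 5′ end had the greater fold in 11 of the 17. In myb-related protein 306-like (Rsa10023517) the folds were 1.58 and 0.83, and in myosin-17-like (Rsa10013160), an actin motor, 0.98 at 0.237 of the gene and 0.41 at 0.726. In ENHANCED DOWNY MILDEW 2 (Rsa10019455), an RNA and chromatin regulator of disease resistance in Arabidopsis, they were 0.40 and 0.75. The shared subunit 2 of DNA-directed RNA polymerases IV and V (Rsa10031980), which serve RNA-directed DNA methylation, had 0.59 and 0.90, heat shock protein 90-1-like (Rsa10010038) had 0.74 and 0.91, and RPS6-like (Rsa10016280), a disease resistance protein, had 0.67 and 0.92.

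A total of 174 genes also held a differential peak outside the set, which gave 179 pairs of peaks within a gene. In 174 pairs both peaks were higher, in 4 the peak centred before 0.8 was lower and the other higher, and in 1 the reverse held. The 4 lay in genes with no informative description (Rsa10042590, Rsa10041032, Rsa10032774 and Rsa10032853), with the widest gap in the first, -1.37 and 1.51, and the reverse case, 0.45 against -0.47 in the 5′ UTR, was a tRNA-dihydrouridine synthase-like gene (Rsa10026249). The median log2 fold in these pairs was 0.50 for the peaks before 0.8 and 0.49 for the others. Mitochondrial aspartate aminotransferase (Rsa10016561) had large folds in both, 5.30 before 0.8 and 8.30 after. Of pairs in which both peaks were higher, the folds also lay far apart in an uncharacterized gene (Rsa10028762), 0.35 and 2.81, serine/threonine-protein kinase CDL1 (Rsa10024165), 0.21 and 2.45, DA1-related 4-like (Rsa10023346), 0.72 and 2.58, and p24beta2 (Rsa10018531), 1.95 and 0.43. For 1027 of the genes the peak described here was the only differential one.

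The genes that held these peaks had less RNA at 120 days more often than the table as a whole. Of the 1215 genes, 1209 were in the expression table and 1156 passed the filter of at least 1 FPKM in at least 3 of the 6 input libraries. By limma at an adjusted p under 0.05, 698 fell (60.4%) and 57 rose (4.93%), against 37.6% and 8.40% of all 21435 genes tested, of which 46.0% were called in either direction. The median log2 fold was -0.62 against -0.45 for all tested genes, and the median FPKM went from 18.0 at 30 days to 11.4 at 120 days against 11.4 to 7.87. In 931 of the 1156 genes (80.5%) no library of one age overlapped the other age, against 60.7% of all tested genes, and in 851 of the 931 the 120-day libraries were the lower ones. Genes of the later exonic peaks (53.4% fell) and of 3′ UTR peaks (57.4% fell) lay on the same side of the table's share.

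Scaling had a strong influence on these counts. After each library was centred on its median, which moved the median log2 fold of all tested genes from -0.45 to -0.01, 186 of the 1156 genes fell (16.1%, against 10.2% of all) and 117 rose (10.1%, against 13.8%). The median log2 fold of the genes was then -0.18. In a leaf sample, fewer cells of a type and less RNA per cell cannot be told apart. The summed FPKM of 30 leaf mesophyll marker genes (small subunit of Rubisco and chlorophyll a-b binding proteins) was 71105 to 94367 at 120 days and 12391 to 16045 at 30 days, out of totals of 636795 to 694436 per library, and the part of that shift in the falls was not tested. Markers of floral organs summed to 1.29 to 4.46 FPKM at 120 days and 1.20 to 4.65 at 30 days. One 30-day library, replicate 3, stood apart, with correlations of 0.895 and 0.835 with the other 30-day libraries against 0.944 between those, and without it 717 genes fell and 66 rose. Without 120-day replicate 1 the counts were 469 and 35, without replicate 2 they were 391 and 23, and without replicate 3 they were 387 and 21.

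In the fit without centring, the share of genes that fell differed between the shapes of the peak. It was 76.3% of 139 genes where the peak covered the whole gene, 69.3% of 391 where it reached only the 3′ end, 56.3% of 103 where it began at the 5′ end and 50.3% of 529 where it lay inside. The median log2 folds of expression were -0.83, -0.71, -0.58 and -0.50. The same groups differed in level, with median FPKM at 30 days of 37.3, 25.1, 19.4 and 12.1. These differences between shapes are counts, with no test of their own. The part of expression level in them was not tested, and shares by shape were not taken after median centring.

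Set side by side, a higher peak most often went with less RNA from its gene in the fit without centring. After centring, and by the authors' calls, most higher peaks were in genes not called. Of the 1188 higher peaks, 698 (58.8%) were in genes that fell, 57 (4.80%) in genes that rose, 385 in genes not called by limma and 48 in genes not tested. Of the 44 lower peaks, 8 were in genes that fell, 2 in genes that rose (CRR1, described below, and Rsa10040389, with no informative description), 22 in genes not called and 12 in genes not tested. After median centring, 187 higher peaks were in genes that fell, 116 in genes that rose and 837 (70.5%) in genes not called. By the gene calls in the authors' deposited table these were 147, 23 and 1014 (85.4%). That table called 145 of the genes down and 26 up, where over all 30161 of its genes it called 11.5% down and 6.45% up. Across 1172 peaks, peak fold and expression fold had a Pearson r of 0.00395 and a Spearman rho of -0.112, a description over peaks. No source used here says whether the input libraries entered the peak fold, so a peak fold cannot be read as free of the gene's RNA level.

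**Figure D4:**
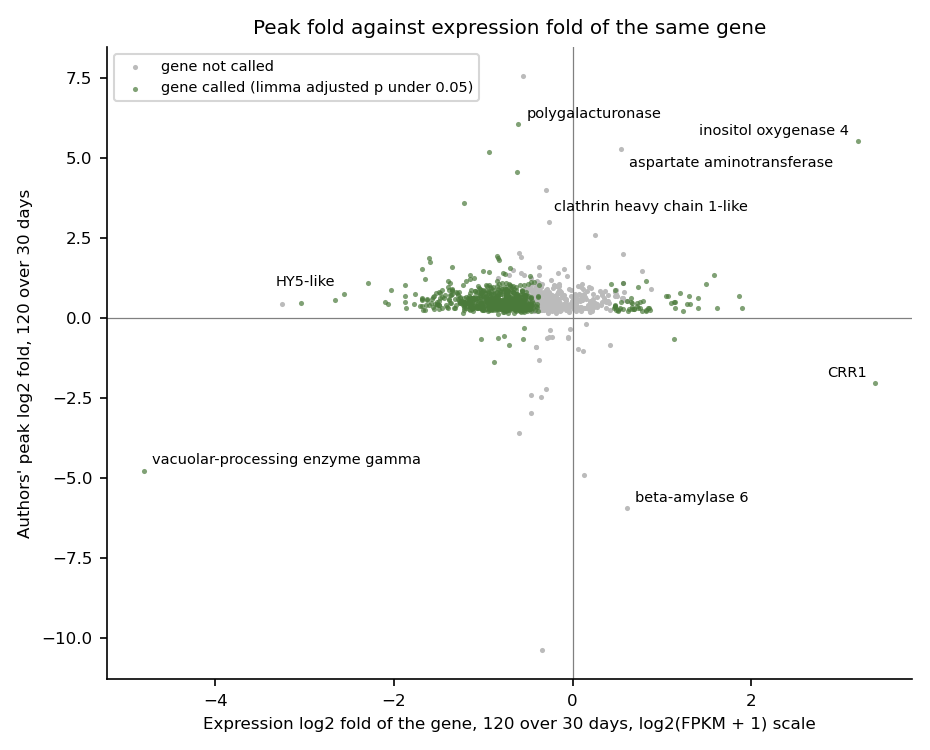
The authors' peak log2 fold is plotted against the expression log2 fold of the same gene (log2(FPKM + 1) scale, 120 over 30 days), green where limma called the gene and grey where it did not. Most points lie above 0 and to the left, with 698 higher peaks in genes that fell, and vacuolar-processing enzyme gamma and CRR1 lie far from the others.

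Vacuolar-processing enzyme gamma (Rsa10002434) fell the most in expression among the described genes. At 30 days its FPKM was 1313, 2626 and 1611, and at 120 days it was 45.4, 71.1 and 75.4, so every 120-day value was far below every 30-day value. The log2 fold was -4.80 (SE 0.335, limma adjusted p 0.00141), close in size to the fold of its peak at the 5′ end, -4.78. The genes that followed it in size of fall each held a higher peak.

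The first, HY5-like (Rsa10025049), a bZIP factor of light responses in Arabidopsis, averaged 33.3 ± 6.99 FPKM (SD, n = 3) at 30 days and 4.73 ± 0.612 at 120 days. Its log2 fold was -2.56 (limma adjusted p 0.00153), while its peak, over 94.1% of the gene, had 0.74. A probable acyltransferase of glycerolipid synthesis (Rsa10031904) fell by 2.29 on the log2 scale (limma adjusted p 0.00344), with a peak of 1.08 at the 5′ end. The transcriptional coactivator KELP (Rsa10004957) fell by 2.10 (limma adjusted p 0.00281), from 60.8 ± 16.0 to 13.3 ± 2.80 FPKM (SD, n = 3), with a peak of 0.49 over the whole gene. In all of these genes the libraries of the 2 ages did not overlap.

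Of the described genes, CRR1 had the largest fitted rise (Rsa10032450, R03, 7203671 to 7203986, minus strand). Its product is needed to assemble the chloroplast NDH complex in Arabidopsis. Its FPKM was 8.06, 4.54 and 0.29 at 30 days and 35.5, 39.4 and 50.05 at 120 days, with no overlap. The log2 fold was 3.39 (SE 0.685, limma adjusted p 0.0107), and 2.58 without 30-day replicate 3. Its peak went the other way, at -2.05 with an FDR of 1e-42. In inositol oxygenase 4 (Rsa10036737) gene and peak rose together. Its FPKM was 0.34, 1.08 and 0.06 at 30 days and 10.2, 19.2 and 8.93 at 120 days, a log2 fold of 3.19 (limma adjusted p 0.00279) on the log2(FPKM + 1) scale, which understates changes of low values. The order of these genes was not stable: inositol oxygenase 4 had the larger log2 fold with a pseudocount of 0.1 (4.80 against 4.07), without 30-day replicate 3 (2.97 against 2.58) and without 120-day replicate 3 (3.39 against 3.26).

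Chloroplast chaperonin 60 subunit beta 1 (Rsa10029081), which helps fold Rubisco, rose from 55.6 ± 8.21 to 210 ± 32.7 FPKM (SD, n = 3; log2 fold 1.90, limma adjusted p 0.00233) with a peak of 0.30. The chloroplast pentatricopeptide repeat protein At2g18940 (Rsa10041875), of a family that binds organelle RNA, rose from 10.2 ± 0.791 to 33.4 ± 3.39 (SD, n = 3; log2 fold 1.62, limma adjusted p 0.00177) with a peak of 0.31. Of the genes with the highest peak folds, syntaxin-22 (Rsa10000544) fell by 0.94 (limma adjusted p 0.00493), a call lost after median centring. Aspartate aminotransferase (Rsa10016561) had 10.0, 8.36 and 5.21 FPKM at 30 days and 12.7, 11.1 and 10.8 at 120 days, which did not pass the test (log2 fold 0.54, limma adjusted p 0.10). Clathrin heavy chain 1-like (Rsa10011156) did not pass it either, at a log2 fold of -0.30 that turned to 0.14 after median centring.

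**Figure D5:**
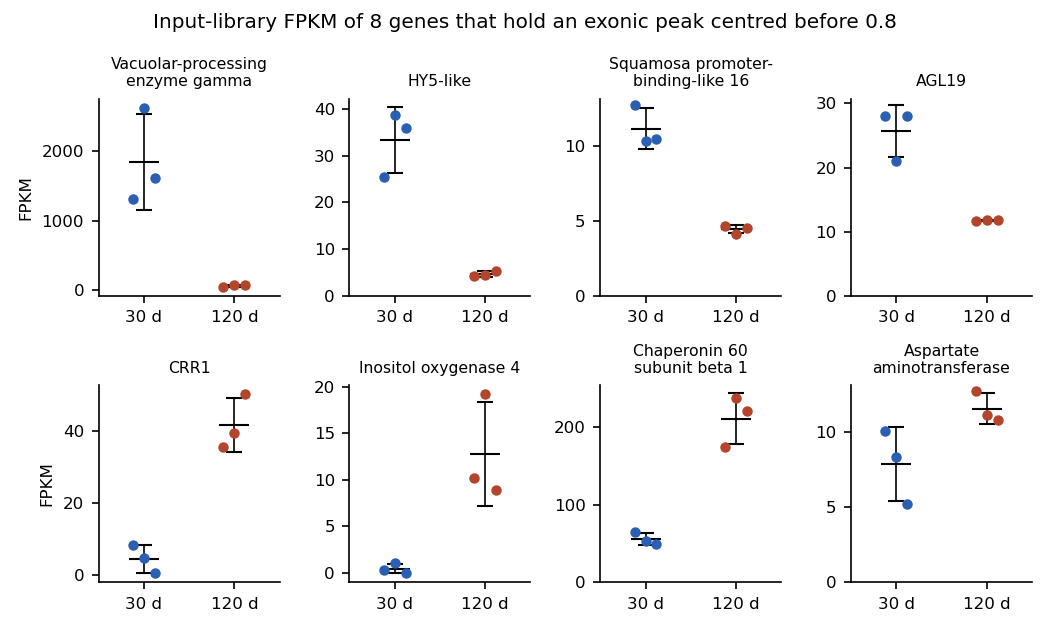
FPKM in each of 3 input libraries per age (blue 30 days, red 120 days) is shown for 8 genes, with the mean as a horizontal line and the SD as the bar. Vacuolar-processing enzyme gamma, HY5-like, squamosa promoter-binding-like 16 and AGL19 were lower at 120 days in every library, and CRR1, inositol oxygenase 4, chaperonin 60 subunit beta 1 and aspartate aminotransferase were higher in every library.

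Among genes of flowering time, 8 held such a peak, out of 26 differential peaks in genes of that list, and all 8 peaks were higher at 120 days (median log2 fold 0.51, range 0.26 to 1.21). None of the 8 genes rose in RNA and 5 fell (62.5%). These shares are near those of the whole set, in which 96.4% of peaks were higher and 60.4% of tested genes fell, while of all 111 flowering genes tested 36.0% fell and 11.7% rose. Squamosa promoter-binding-like protein 16 (Rsa10030713, R02, 38689814 to 38689992, plus strand), of a family that drives phase change, had the highest peak fold, 1.21, at 0.0558 of the gene. Its FPKM was 12.7, 10.3 and 10.5 at 30 days and 4.67, 4.14 and 4.52 at 120 days, and its fall (log2 fold -1.15, limma adjusted p 0.00335) also passed the test after median centring. AGL19 (Rsa10004026), a MADS-box activator of flowering in Arabidopsis, had 28.1, 21.05 and 28.1 FPKM at 30 days and 11.7, 11.8 and 11.8 at 120 days (log2 fold -1.05, limma adjusted p 0.00473). Its peak covered the whole gene and had a fold of 0.40.

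The RNA-binding regulator FPA-like (Rsa10024119; peak 0.70), FRIGIDA-like protein 5 (Rsa10009315; peak 0.73) and the homeobox protein LUMINIDEPENDENS (Rsa10007500; peak 0.38) fell by 0.56, 0.69 and 0.41 on the log2 scale. All of these calls were lost after median centring, where LUMINIDEPENDENS was at 0.03. The other 3 genes did not pass the test. FPA itself (Rsa10039278; peak 0.36) was at -0.14 in expression and 0.30 after median centring, AGL6 (Rsa10026178; peak 0.61) at 0.09, and PHOTOPERIOD-INDEPENDENT EARLY FLOWERING 1-like (Rsa10013009; peak 0.26), a chromatin remodeller, at -0.38 and 0.06 after centring.

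Of the m6A machinery, 1 gene held such a peak. It was YTH domain-containing family protein 2-like (Rsa10014930, R09, 33933856 to 33934573, plus strand), a protein class that binds the mark, with a peak fold of 0.64 over 45.5% of the gene. Its FPKM was 0.89, 1.21 and 1.21 at 30 days and 2.81, 1.86 and 2.30 at 120 days, higher in every 120-day library. The gene rose by a log2 fold of 0.65 (limma adjusted p 0.0264), a call that was lost when any 120-day library or 30-day replicate 1 was left out (log2 folds 0.55 to 0.76).

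By function, the set drew unevenly on the differential peaks, which are counts with no test. Over all genes 1232 of 5476 peaks belonged to it. Of peaks in genes of kinases and receptors it held 30 of 280, of ubiquitin and proteolysis genes 35 of 297, and of transport genes 14 of 128. Of transcription factor genes it held 62 of 204, of chaperones 11 of 31, of defence and glucosinolate genes 14 of 35 and of redox genes 10 of 27. Genes of RNA processing (62 of 283), chromatin (11 of 46), vesicle traffic and cytoskeleton (34 of 123), hormones (4 of 13) and the cell wall (4 of 27) lay between or had few peaks. Only 1 of 11 peaks in light harvesting and photosynthesis genes belonged to it, in photosystem I subunit N (Rsa10033459), over a gene of 322 bases.

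All peaks were higher at 120 days in translation (46), vesicle traffic and cytoskeleton (34), transport (14), chaperones (11), chromatin (11), redox (10), flowering (8), cell wall (4) and hormones (4). With 96.4% of the whole set higher, this is near the background and says nothing particular about these lists. Lower peaks occurred in RNA processing (3 of 62), kinases and receptors (3 of 30), transcription factors (2 of 62), ubiquitin and proteolysis (1 of 35) and defence (1 of 14). Median log2 folds ran from 0.38 in translation to 0.65 in cell wall genes. Outside the greatest folds already named, zinc finger protein WIP3 (Rsa10037487) had 1.96 (FDR 0.00871) and the putative disease resistance protein At1g63350 (Rsa10027878) 1.61 (FDR 0.00112). Myosin-11 (Rsa10040214) had 2.01 (FDR 3.98e-06). F-box/kelch-repeat protein At3g61590-like (Rsa10007323) had 2.02, but over 89 bases with an FDR of 0.0759, in a gene whose mean FPKM was under 1 at both ages. The copper-transporting ATPase PAA1 of the chloroplast (Rsa10002027) had 1.52 with an FDR of 6.31e-18, while its RNA did not pass the test, at 4.54 ± 1.33 FPKM at 30 days and 4.08 ± 0.0569 at 120 days (SD, n = 3).

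In expression, genes that fell outnumbered those that rose in every list but m6A machinery. After median centring translation, transport and the cell wall had more rises, and photosynthesis, chromatin, kinases, chaperones and redox had equal numbers. The photosynthesis list had only 1 tested gene, which fell, whereas of all 127 genes of that list 51.2% rose and 9.45% fell. Most lists lay near the share of the whole set, of which 60.4% fell, so their counts are not a result about the lists. In RNA processing 35 of 59 tested genes fell and 3 rose, where 43.2% of all 774 genes of that list fell, and in transcription factors 33 of 58 fell and 2 rose, where 39.5% of all 1060 fell. Of vesicle traffic and cytoskeleton genes 20 of 32 fell and none rose, against 33.4% falling of all 365, and of kinases and receptors 13 of 25 fell and 1 rose, against 35.3% of all 1232.

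The share was higher in ubiquitin and proteolysis, where 24 of 33 genes fell (72.7%) and none rose, against 41.9% of all 1135 genes of that list. It was lower in defence, where 4 of 11 fell (36.4%) and none rose, against 19.9% of all 166, and in redox, where 4 of 9 fell and 1 rose, against 27.2% of all 206. Small lists had 7 of 10 fall and 1 rise in chaperones, 7 of 14 and 2 in transport, 5 of 11 and 1 in chromatin, 3 of 4 and 0 in hormones, and 2 of 3 and 1 in the cell wall. Over all genes of these lists, in the same order, 38.2%, 40.4%, 43.8%, 34% and 12.5% fell, and 5.34%, 8.05%, 4.11%, 8.02% and 14.7% rose. After median centring the falls shrank to 7 of 33 in ubiquitin and proteolysis, 3 of 32 in vesicle traffic and cytoskeleton and 6 of 59 in RNA processing. In that setting 16.1% of the whole set and 10.2% of all tested genes fell. Among the transport genes, a rise was seen in the putative ion channel POLLUX-like 2 (Rsa10012323), from 7.89 ± 1.26 to 19.2 ± 0.516 FPKM (SD, n = 3; log2 fold 1.20, limma adjusted p 0.00341), with a peak of 0.78.

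Translation genes split by compartment. This split, by the word chloroplast in the description, was made after the values had been seen. Of 10 tested genes for chloroplast translation 7 rose and none fell (median log2 fold 0.77), where over all 78 such genes tested 34 rose and 4 fell (median 0.52). Of 35 other translation genes 18 fell and none rose (median -0.51), where over all 417 such genes 158 fell and 7 rose (median -0.42). After median centring 10 of the 10 chloroplast genes rose, where over all 78 such genes 49 rose and 0 fell. Of the 35 others 2 then fell and 1 rose, where over all 417 such genes 24 fell and 25 rose. All peaks of both kinds were higher at 120 days, as were 96.4% of the whole set. Their median log2 folds were 0.30 (11 peaks) and 0.39 (35 peaks).

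The genes of the translation list with a chloroplast name that rose were those of ribosomal proteins L35 (Rsa10023130; 77.5 to 207 FPKM), L34 (Rsa10040422; 70.8 to 178), L28 (Rsa10004902; 122 to 268) and S9 (Rsa10023533; 18.8 to 31.6). With them rose elongation factor G (Rsa10033530; 268 to 473) and 2 genes of elongation factor Tu (Rsa10025510; 181 to 325, and Rsa10021179; 97.0 to 139), all given as means at 30 and 120 days. Their peak folds ran from 0.21 to 0.44. Ribosome-recycling factor of the chloroplast (Rsa10001983), which the words of the list do not take in, also rose, from 24.8 to 69.2 FPKM, with a peak fold of 1.36. The mesophyll markers named above were higher at 120 days as well, and their part in these rises was not tested.

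The limit at 0.8 cut through a continuous range. Just inside it lay peaks at 0.7997 in a gene described only as At1g21580 (Rsa10040256, log2 fold 0.52), at 0.7996 in SUMO-conjugating enzyme SCE1-like (Rsa10007355, 0.65) and at 0.7995 in ribosome biogenesis protein BRX1-like (Rsa10042626, 0.78). Just outside lay peaks at 0.8003 in nuclear pore protein NUP62 (Rsa10039389, 0.32), at 0.8005 in myelin transcription factor 1-like (Rsa10011265, 1.56) and at 0.8007 in an uncharacterized gene (Rsa10021325, 0.63).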

How the data were processed

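Radish leaf RNA was measured by m6A-seq and RNA-seq in 12 libraries. Per the submitters' processing notes, the authors used fastp, FastQC, HISAT2, StringTie, HOMER and edgeR, with no versions. The genome build, annotation, peak caller and the role of each tool are not given in the sources used here. Coordinates are those of the authors' table, shifted to a 1-based start.

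The authors deposited 1 log2 fold, p-value and FDR per differential peak, with no value per library, and FPKM per gene and input library. The deposited tables hold no read counts, so depth is unknown and the 3 libraries per age limit the precision.

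From these, relative positions, lengths and shares of the gene span were computed with Python 3.11.15 and pandas 2.3.3. FPKM was tested on log2(FPKM + 1) with limma 3.58.1 (R 4.3.3; moderated, trend, 2-sided) on all 21435 genes with at least 1 FPKM in at least 3 of 6 libraries, with Benjamini-Hochberg adjustment over all of them and a threshold of 0.05. The fit was run on simulated data with few changed genes, rises and falls equally likely, and no shift between libraries. That run therefore cannot speak to the scaling of the real libraries. An exact test of 3 against 3 libraries could not go below 0.1. Alternatives were another pseudocount, no filter, median centring, quantile normalization, no trend, a replicate block and each library left out.

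The regions, function lists (by words in the descriptions) and alternatives were chosen with earlier results of these data known. Word matches inside other words were corrected in the lists after the tables had been read. Named items are, among genes with an informative description (810 of 1215), the 8 greatest folds each way, the 4 nearest the 5′ end, the 4 longest and 4 most covering, the 4 greatest expression changes each way, 6 genes with several peaks, up to 3 per list, all of flowering and m6A machinery, and 3 on each side of 0.8. Other named genes were chosen after their values were seen. Leaf mesophyll, floral organ, seed and phloem markers were summed over 30, 11, 10 and 19 genes. Seed markers summed to at most 1.18 FPKM, phloem markers to 84.3 to 118 FPKM at 120 days and 83.5 to 142 at 30 days, and no root marker matched.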

Additional observations from a re-analysis of the deposited data

How the results depend on the processing

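Counts of called genes moved with scaling and with the library left out, and counts of peaks with which peaks were admitted. All 21435 tested genes gave 9853 calls, but 5156 after median centring and 5453 after quantile normalization, and 4854 to 11363 with 1 library left out. Genes with a peak gave 57 rises (117 centred, 104 quantile, 21 to 66 with a library left out) and 698 falls (186, 248, 387 to 717), with 120-day replicates 2 and 3 lowering them most. Deviations of libraries with the same replicate number correlated at 0.272, 0.142 and 0.0814. Unlike numbers were not compared, so these values cannot decide whether the libraries were paired. A replicate block gave 8608 calls in all, 44 rises and 584 falls, with YTH domain-containing family protein 2-like (Rsa10014930) at a limma adjusted p of 0.0632. Higher peaks numbered 1188, but 540 with the 3′ edge before 0.8, 378 centred before 0.5 and 31 at a log2 fold of 2 or more. Lower peaks numbered 44, but 26 centred before 0.5, and 15 each at FDR 0.01 and at log2 fold 2. Under the edge, the 0.5 and the log2 fold limits the median log2 fold was 0.54, 0.55 and 2.37. With FDR 0.01 placed before the last of these, median lengths were 399, 390, 666 and 440 bases and shares covered 14%, 16.1%, 45% and 20%. Higher peaks in genes that rose numbered 23 by the authors' deposited table and 116 after centring, those in genes that fell 147 and 187, and lower peaks in genes that fell 1 and 2. Of 372 pairs of a named gene and a setting, 309 kept direction and call, 47 lost the call, 6 gained it and 10 reversed. Reversals after centring and quantile normalization were LUMINIDEPENDENS (Rsa10007500; 0.03, 0.01), clathrin heavy chain 1-like (Rsa10011156; 0.14, 0.01), PHOTOPERIOD-INDEPENDENT EARLY FLOWERING 1-like (Rsa10013009; 0.06, 0.05) and FPA (Rsa10039278; 0.30, 0.27). The kinase Rsa10000572 reversed without 30-day replicate 1 (-0.05, up to 0.25 without others) and AGL6 (Rsa10026178) without 30-day replicate 2 (-0.03, up to 0.22). The cause of these changes was not tested. Lengths over spliced blocks could not be run, since the table gives 1 start and end per peak.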

Other observations

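Genes whose description names the chloroplast had smaller peak folds and more rises in RNA than the whole set. This grouping and the next were made after the values had been seen, with no test of the group. Of 61 such peaks 58 were higher at 120 days, where 96.4% of the whole set were. Their median log2 fold was 0.32, against 0.48 over all 1232 peaks. These genes were also more strongly expressed, with a median FPKM of 26.9 at 30 days and 37.1 at 120 days, against 18.0 and 11.4 in the whole set. In the highest expression group of the set, from 23.6 FPKM, the median log2 fold was 0.38. The part of expression level in the smaller folds was not tested. Of the 58 tested genes 21 rose (36.2%) and 12 fell (20.7%), with a median log2 fold of 0.26, while over all 1536 chloroplast genes tested 26.0% rose and 14.9% fell (median 0.13). After median centring 33 of the 58 rose and 2 fell, while over all 1536 chloroplast genes 583 rose and 63 fell. The 30 leaf mesophyll marker genes were higher at 120 days too (summed FPKM 71105 to 94367, against 12391 to 16045 at 30 days), and their part in these rises was not tested. Besides the genes of the translation list, those that rose included alpha-amylase 3 (Rsa10024529; 41.6 to 99.8 FPKM), a starch-degrading enzyme, CHUP1 (Rsa10006863; 2.28 to 8.19), which positions chloroplasts on actin, and ribosome-recycling factor (Rsa10001983; 24.8 to 69.2), a translation factor that the words of that list do not take in, with a peak fold of 1.36. Photosynthetic NDH subunit B 1 (Rsa10038045), a partner of the complex that CRR1 assembles, rose from 138 to 217 FPKM and held 2 higher peaks, at 0.28 and 0.46.

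Subunits of mitochondrial complex I, which feeds electrons from NADH into respiration, held 10 of the peaks out of 27 differential peaks in such genes. Over all genes, 1232 of 5476 differential peaks belonged to the set. All 10 were higher at 120 days (median log2 fold 0.37), all 10 extended to the 3′ end of the gene and 3 covered it whole. In the whole set 96.4% were higher, 43.7% extended to the 3′ end and 11.6% covered the gene, and no test was made. Reaching the 3′ end was not particular to complex I. It held for 37 of 46 translation peaks and 7 of 10 redox peaks, but for 5 of 30 in kinases and receptors. The median gene span was 1053, 1140 and 3153 bases in these lists, and its part was not tested. In RNA, 6 of the 10 complex I genes fell and none rose (median log2 fold -0.60), and over all 47 complex I genes tested 32 fell and none rose (median -0.74). After median centring 3 of the 10 fell, and over all 47 complex I genes 9 fell and 1 rose.

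By the authors' pathway annotation, 422 of 1974 annotated genes with a differential peak held one centred before 0.8. The shares were above that in ribosome genes (56 of 214, 26.2%), spliceosome genes (36 of 130, 27.7%) and oxidative phosphorylation (23 of 74, 31.1%), and below it in RNA transport (23 of 121, 19.0%), mRNA surveillance (11 of 82, 13.4%) and purine metabolism (8 of 62, 12.9%). No test was made on these counts.

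Peak length went with the size of the fold by rank only. Across the 1232 peaks the Spearman rho was -0.291 and the Pearson r 0.0314, a description over peaks from the same libraries. The 130 peaks of at most 200 bases had a median log2 fold of 0.68, with 29.2% at a log2 fold of at least 1 in either direction, and 53.8% had an FDR at or under 0.01. The 308 peaks over 1000 bases had a median of 0.41, with 6.49% and 93.5%. The parts of expression level and of the authors' p-value limit in this difference were not tested. Cyclin-D4-2 (Rsa10013614), a cell cycle regulator, was among the few lower peaks whose gene also fell, with a peak of -0.83 and RNA from 4.76 to 2.51 FPKM (log2 fold -0.71, limma adjusted p 0.0159).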
